A study of Mus musculus with 27 samples.

Results

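The genes described here encode 10 enzymes that build serine, pass its carbon to folate, or build proline: Phgdh, Psat1, Psph, Shmt1, Shmt2, Mthfd2, Mthfd1l, Pck2, Aldh18a1 and Pycr1. They were taken by gene symbol from tables of 38352 genes. Each symbol matched 1 row, and all 10 passed the filter on low values that left 13614 genes for testing. The mRNAs of 9 of the 10 fell in mouse embryonic stem cells by 8 h after a brief exposure to hydrogen peroxide. They were still low at 10 h. Of all tested genes, 11.6% and 9.43% were called lower at these times. The deepest falls were those of Phgdh and Pck2, whose mean levels at 10 h were 47.3% and 38.7% of the untreated mean. From 10 h to 24 h the mRNAs of 8 members rose, against 8.18% of all tested genes called higher. At 24 h all 10 lay below untreated cells of the same time, with a median difference of -0.25 on the log2 scale. There 3 of the 10 were called lower, against 4.28% of all tested genes. Untreated cells at 24 h lay above those at 0 h for all 10, by a median of 0.17, with 0 called. Against untreated cells at 0 h no member was called in treated cells at 24 h, while 10.4% of all tested genes were.

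Serine is made from the glycolytic intermediate 3-phosphoglycerate in a chain of dehydrogenase, aminotransferase and phosphatase steps. Serine hydroxymethyltransferases then split serine into glycine and a carbon unit carried by folate, which dividing cells use for purines, thymidylate and methyl groups. Proline is made from glutamate through a pair of enzymes that consume reducing equivalents. Many genes of these pathways are known targets of the transcription factor ATF4, which acts in the amino acid and stress response, and of MYC.

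E14Tg2a cells, a line of mouse embryonic stem cells, were kept on gelatin in medium with serum, leukemia inhibitory factor and the inhibitor supplement called 2i. All groups shared this line and medium. Polyadenylated RNA was sequenced from 27 libraries in 9 groups, each with 3 biological replicates from independent time courses. There were untreated groups for 0 h and 24 h, and treated groups for 0.5, 2, 4, 6, 8, 10 and 24 h from an exposure to 500 µM H2O2 for 30 min. The concentration follows the treatment protocol, since the series text prints the same figure in mM. Cells at 0.5 h were collected as the exposure ended, and the later treated cells received spent medium of untreated cells. No group is labelled as having had only the change of medium, so the oxidant and the medium change cannot be told apart. Treated cells were compared with untreated cells at 0 h up to 10 h and with untreated cells at 24 h on the next day. The design asks whether and when a transient oxidant exposure alters gene expression.

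Levels are FPKM, fragments scaled to transcript length and to the mapped fragments of the library, which keep no count of reads, so the depth of each library is unknown. Between 11516 and 12607 genes reached 1 FPKM in a library. In bulk RNA, fewer cells with a transcript and less transcript per cell cannot be told apart. All 8 listed markers of pluripotent cells, among them Pou5f1, Sox2 and Nanog, were present in every group, with summed levels of 2340 to 4400 FPKM. Their sums were 3380 to 4400 FPKM in untreated cells at 0 h, 2580 to 2820 at 6 h, 2340 to 2990 at 10 h and 3330 to 3430 in treated cells at 24 h. The 8 markers did not move alike. Nanog was at 296 to 371 FPKM at 0 h, 89.7 to 89.9 at 6 h and 227 to 243 at 10 h. Esrrb was at 79.1 to 128, 119 to 123 and 86 to 100 FPKM at these times. The part of these marker shifts in the results for the enzymes was not tested. Hepatocyte markers, 25 genes led by Alb, summed to 63.2 to 92.4 FPKM at 0.5 h and 59.1 to 82 FPKM in untreated cells at 24 h. Their sums ran from 4.61 to 84.4 FPKM at 8 h, were 63.7 FPKM in 1 library at 6 h, and were 11.5 FPKM or less in untreated cells at 0 h and in treated cells at 2, 4, 10 and 24 h. Signal also leaned towards GC-rich transcripts in some libraries. The slope of the log2 level on GC content, per 10 percentage points and relative to untreated 0 h replicates 1 and 2, was 0.357 in untreated 0 h replicate 3 and 0.321 in H2O2 2 h replicate 1. It was 0.192 in H2O2 8 h replicate 3 and 0.203 in H2O2 10 h replicate 3, against at most 0.084 in the other libraries of these 4 groups. It was 0.13 to 0.205 in the libraries at 4 h and 0.102 to 0.111 in those at 6 h. Many of the counts that rest on these 4 libraries, called GC-leaning below, are also given without them. The 4 h libraries and untreated 24 h replicate 1, at 0.178, had slopes of similar size to those of the 8 h and 10 h libraries named, and stayed in those fits.

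The stretches just before the start sites of 5 members are shown because these genes range from Pck2 and Phgdh, the deepest falls, to Mthfd2, which did not pass the test at 10 h. The 5 include every member with a match to the first or second motif below. Shmt1, with the smallest change at 10 h, is not shown. Each stretch is the 250 bases before the RefSeq transcript start on GRCm38.p6, printed 5′ to 3′ on the strand of the gene. Capitals mark 3 motifs found by letter search on both strands: the C/EBP-ATF response element TGATGNAA, which binds ATF4 with C/EBP partners, the E-box CACGTG, which binds MYC, and the CCAAT box. The windows are chr14:55540016-55540265 on the plus strand for Pck2 and, on the minus strand, chr11:120643749-120643998 for Pycr1, chr19:40588464-40588713 for Aldh18a1, chr3:98339970-98340219 for Phgdh and chr6:83317605-83317854 for Mthfd2.
Pck2: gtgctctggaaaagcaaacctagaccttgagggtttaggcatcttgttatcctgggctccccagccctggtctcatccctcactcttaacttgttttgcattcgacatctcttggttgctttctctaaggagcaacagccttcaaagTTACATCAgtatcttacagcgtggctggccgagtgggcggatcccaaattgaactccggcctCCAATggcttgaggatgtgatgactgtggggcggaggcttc
Pycr1: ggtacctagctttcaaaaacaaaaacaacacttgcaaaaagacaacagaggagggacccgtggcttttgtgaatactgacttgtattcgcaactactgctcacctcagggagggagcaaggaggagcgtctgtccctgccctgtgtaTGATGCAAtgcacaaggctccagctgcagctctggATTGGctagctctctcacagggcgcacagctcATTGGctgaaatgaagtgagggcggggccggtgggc
Aldh18a1: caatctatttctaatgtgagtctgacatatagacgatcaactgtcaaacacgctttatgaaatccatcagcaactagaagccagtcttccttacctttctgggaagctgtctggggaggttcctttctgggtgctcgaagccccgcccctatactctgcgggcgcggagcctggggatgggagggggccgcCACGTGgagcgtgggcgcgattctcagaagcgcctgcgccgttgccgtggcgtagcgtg
Phgdh: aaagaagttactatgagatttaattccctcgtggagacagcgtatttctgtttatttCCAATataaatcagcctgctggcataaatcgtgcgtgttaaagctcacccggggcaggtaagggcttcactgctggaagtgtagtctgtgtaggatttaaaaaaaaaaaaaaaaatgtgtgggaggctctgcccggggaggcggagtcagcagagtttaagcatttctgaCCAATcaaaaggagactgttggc
Mthfd2: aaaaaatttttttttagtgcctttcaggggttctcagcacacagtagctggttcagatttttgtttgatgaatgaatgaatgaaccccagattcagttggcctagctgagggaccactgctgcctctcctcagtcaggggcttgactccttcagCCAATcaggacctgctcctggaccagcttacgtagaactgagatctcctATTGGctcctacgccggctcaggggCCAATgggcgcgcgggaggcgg

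The response element was found for 2 of the 10 genes. In Pck2 it reads TTACATCA, its reverse complement, and in Pycr1 it reads TGATGCAA. In both it lies 103 to 96 bases before the start. Of 32851 RefSeq windows of the same length, 3.45% held this motif. The E-box, found in 6.02% of the windows, occurred in Aldh18a1 alone among the members, 59 to 54 bases before the start. The CCAAT box was present for 7 members against 33.8% of all windows, and the GC box GGGCGG, not set in capitals, for 7 members against 32.7%. Psat1 has a pair of windows, and its GC box is only in the second, so the 10 genes offered 11 windows for these counts. In Shmt1 2 of the GC box matches overlap by a base. These are matches of letters and not sites shown to be bound.

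All 10 genes are protein-coding in GENCODE M21 on GRCm38. Phgdh lies on chromosome 3 from 98313170 to 98339990, Psph on chromosome 5 from 129765558 to 129787449 and Mthfd2 on chromosome 6 from 83305691 to 83325908. Mthfd1l spans 3973118 to 4167081 and Shmt2 127517123 to 127522444 of chromosome 10. Shmt1 spans 60788104 to 60811718 and Pycr1 120635712 to 120643769 of chromosome 11. Pck2 lies on chromosome 14 from 55540266 to 55551242. Psat1 occupies 15904678 to 15947337 and Aldh18a1 40550257 to 40588463 of chromosome 19. The Mthfd2 window lies inside its gene span, since the RefSeq start used here is not the outermost one annotated there.

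In untreated cells at 0 h the levels per transcript length ran over an order of magnitude. Psat1 was highest at 81 ± 7 FPKM (SD, n = 3), followed by Shmt2 at 66 ± 7, whose highest library lay just above the lowest of Psat1. Shmt1 at 43.3 ± 0.934 and Phgdh at 41 ± 4.71 did not differ beyond their spread. Mthfd2 at 21.9 ± 4.58, Mthfd1l at 21.8 ± 5.68 and Aldh18a1 at 14.9 ± 3.81 also overlapped with each other. Psph at 8.19 ± 1.4, Pycr1 at 5.71 ± 0.089 and Pck2 at 5 ± 0.307 were the lowest. The spread of Mthfd1l, Aldh18a1 and Mthfd2 came from untreated 0 h replicate 3, which lay 0.68, 0.65 and 0.53 log2 units below the mean of the other 2 libraries.

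**Figure D1:**
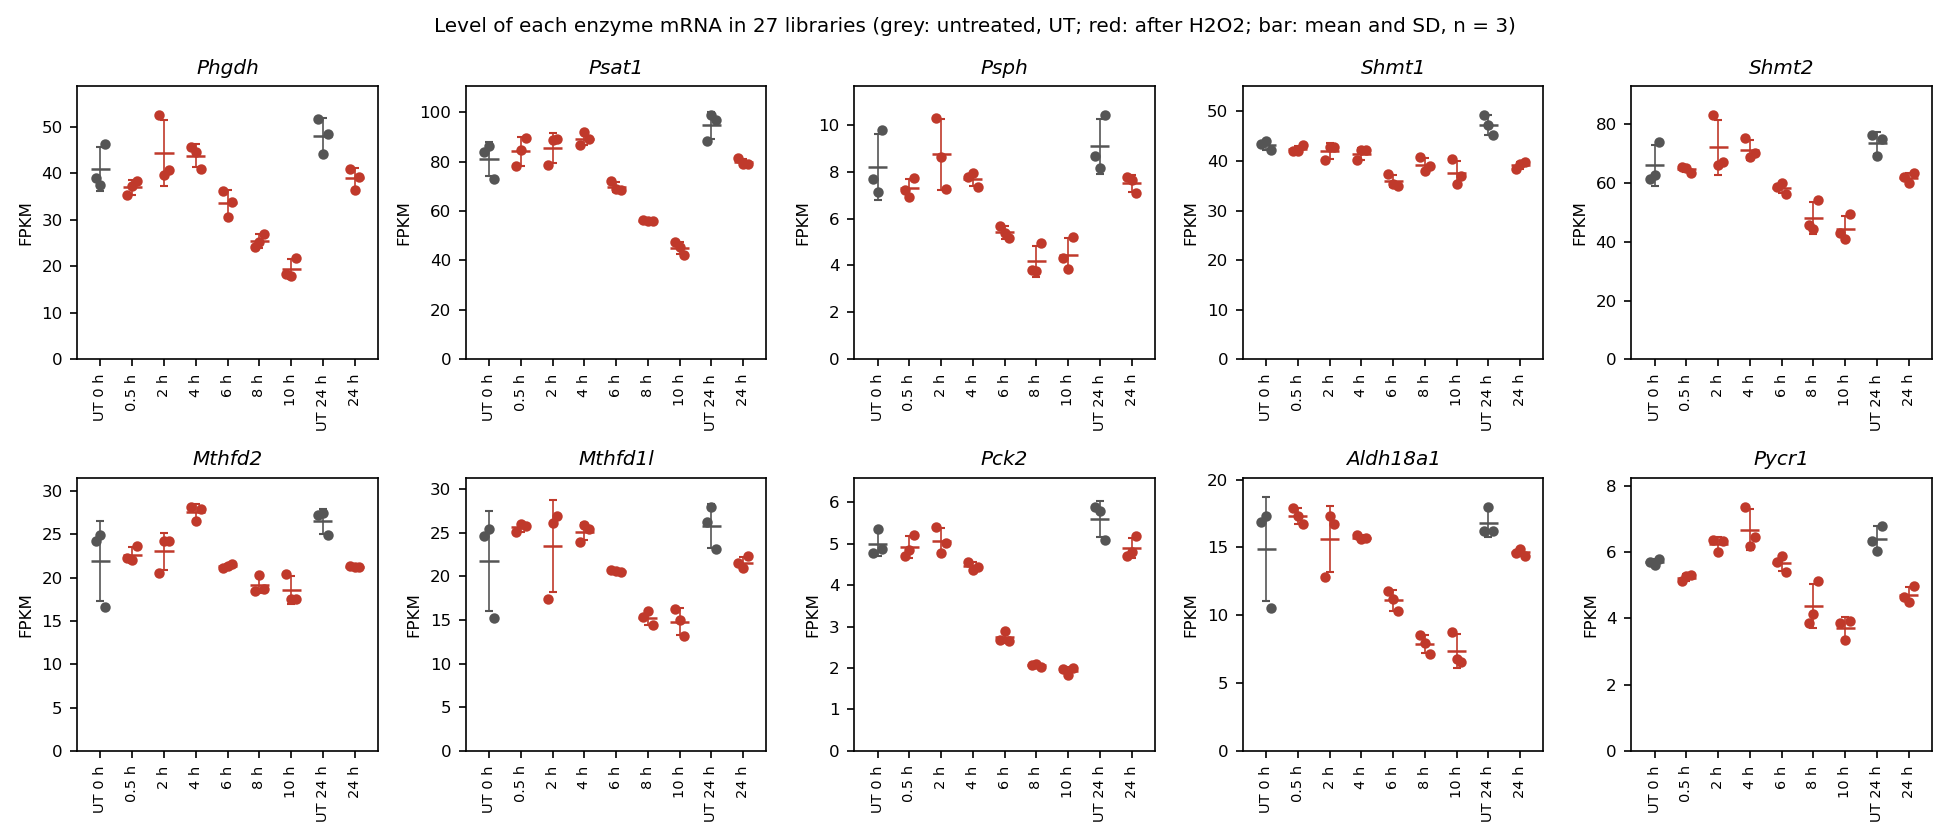
Level of each of the 10 enzyme mRNAs in FPKM (vertical axis, from 0) in each of the 27 libraries (points) by group and time in hours (horizontal axis), untreated in grey and treated in red, with the mean and SD of 3 libraries. In Pck2 the 3 libraries at 10 h lie between 1.82 and 2 FPKM and the 3 untreated ones at 0 h between 4.77 and 5.35.

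Changes are differences of mean log2(FPKM + 1) with their standard error (SE), which makes changes of low genes look smaller than they are. They were tested with limma across all 13614 genes, with Benjamini-Hochberg adjustment within each comparison, and a gene is called changed at an adjusted p below 0.05. Counts under other fits are mostly given without the share of all tested genes in those fits. They show how far a count depends on the fit. At 0.5 h and at 2 h, 0 of 10 members were called changed, against 0.0808% and 1.07% of all tested genes. At an unadjusted p below 0.05 the whole table held 1352 genes at 0.5 h and 1033 at 2 h. At 4 h 1 member was called higher, against 14.2% of all tested genes called higher and 26.3% called in either direction. It was Mthfd2, the mitochondrial enzyme that oxidises the carbon unit on folate, which measured 28.2, 26.6 and 28 FPKM at 4 h against 24.2, 24.9 and 16.6 before. The 4 h libraries lay above all controls for 3 members and below for 2, against 18.2% and 13.7% of all tested genes. Mthfd2 was among those above, with a change of 0.34 (SE 0.10, limma adjusted p = 0.0161). That call was lost without untreated 0 h replicate 3, H2O2 4 h replicate 1 or H2O2 4 h replicate 3. Without the 4 GC-leaning libraries, 4 members were called higher at 4 h, namely Shmt2, Pycr1, Mthfd2 and Phgdh, with changes of 0.16 to 0.20. That fit kept 4 h libraries with GC slopes of 0.13 to 0.205 and untreated 0 h libraries at -0.02 and 0.02. Shmt2 and Phgdh, at 57.4% and 57.2% GC, are the most GC-rich members, beside a median of 49.8% for tested genes. The part of GC content in these calls was not tested in that fit.

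From 0.5 h to 2 h and from 2 h to 4 h 0 of 10 members were called changed, against 1.17% and 20.1% of all tested genes. The falls began between 4 h and 6 h. From the 4 h to the 6 h libraries 8 of 10 members fell, against 8.48% of all tested genes called lower, and from 6 h to 8 h 7 fell, against 6.02%. From 8 h to 10 h the members called were Phgdh and Psat1, against 3.58% of genes. The count from 4 h to 6 h was 4 without H2O2 4 h replicate 1 and 5 without H2O2 6 h replicate 3, that from 6 h to 8 h was 4 without H2O2 6 h replicate 1 or 2, and that from 8 h to 10 h was 1 without any one of the 8 h or 10 h libraries. Against untreated cells at 0 h, 6 members were lower at 6 h, where 20% of all tested genes were, and 9 at 8 h and at 10 h, where 11.6% and 9.43% were. Their median change was -0.24 at 6 h, -0.49 at 8 h and -0.65 at 10 h, while the median of all tested genes was 0, 0.11 and 0.11. Every treated library lay below every untreated 0 h library for 6 members at 6 h, 8 at 8 h and 8 at 10 h, against 21.3%, 11.1% and 9.66% of all tested genes. At 6 h the count was 3 without H2O2 6 h replicate 2 or without replicate 3, and 2 when only the libraries of the groups compared were fitted. With that smaller fit it was 4 at 8 h and 3 at 10 h. Without the 4 GC-leaning libraries 8 members were lower at 6 h and all 10 at 8 h and at 10 h. Calls rose in other genes of that fit too. Of 20 genes for aminoacyl-tRNA synthetases, which load amino acids onto tRNA, 14 were lower at 6 h, against 2 in the main fit. Among all genes, 3969 rose and 1576 fell at 8 h, and 3025 rose and 1284 fell at 10 h. Median-of-ratios scaling moved the median of all genes from 0.11 to -0.02 at 8 h and to -0.01 at 10 h. After that scaling 2797 rose and 2603 fell at 8 h, 2055 rose and 2092 fell at 10 h, and all 10 members were lower at both times.

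**Figure D2:**
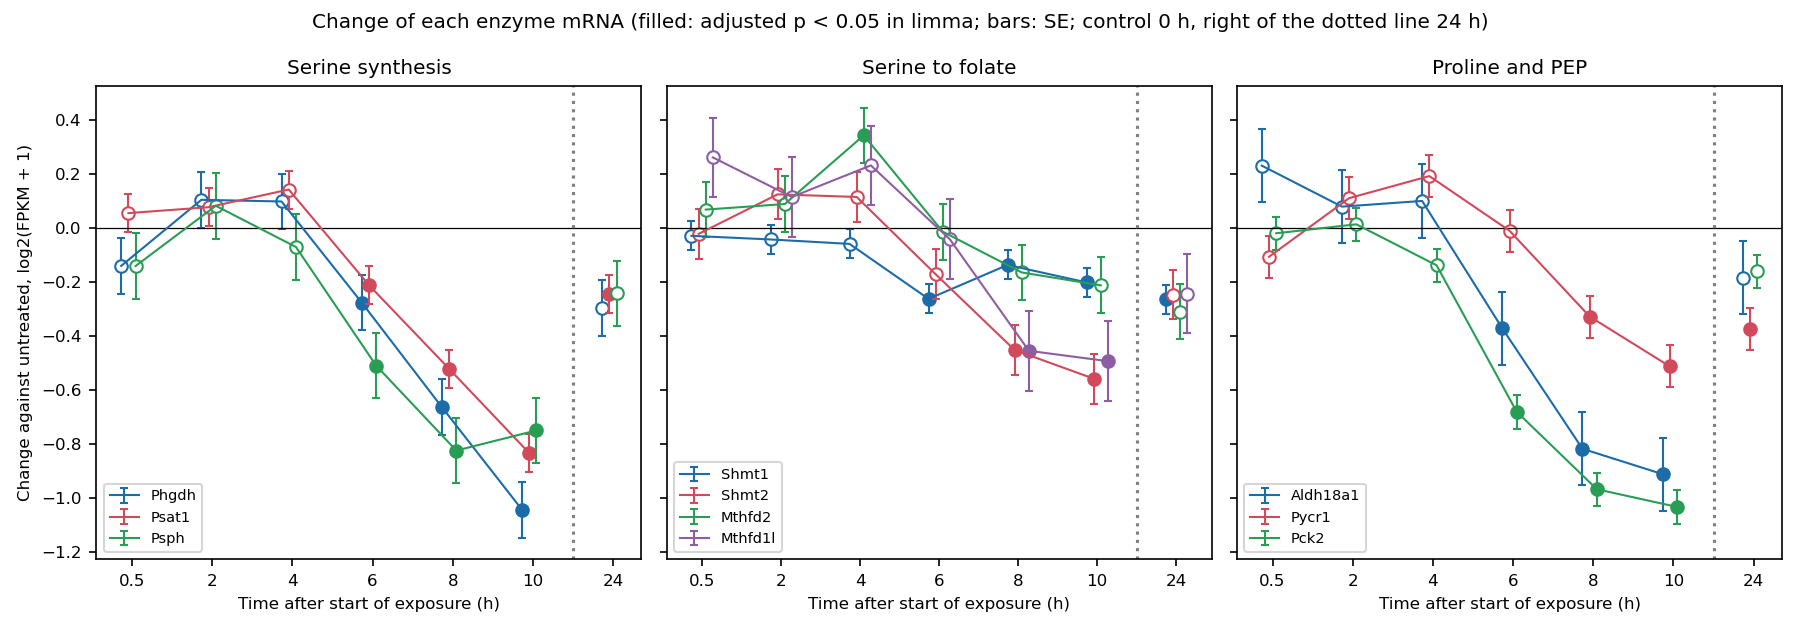
Change of each enzyme mRNA against untreated cells, on the log2(FPKM + 1) scale (vertical axis), by time in hours (horizontal axis), with SE bars and filled points where the limma adjusted p was below 0.05. Up to 10 h the control is untreated 0 h, and the 24 h points right of the dotted line have the untreated 24 h control. Phgdh reaches -1.04 and Pck2 -1.03 at 10 h, while Shmt1 stays between -0.26 and -0.03.

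Phgdh, the dehydrogenase that commits 3-phosphoglycerate to serine, measured 39, 37.6 and 46.4 FPKM in untreated cells at 0 h. Its level was 36.3, 30.7 and 33.9 FPKM at 6 h, 24.1, 25.2 and 27 FPKM at 8 h, and 18.4, 17.9 and 21.8 FPKM at 10 h. Each of these sets lay below all untreated libraries, and the sets at 6, 8 and 10 h did not overlap with each other. The change was -0.28 (SE 0.10, limma adjusted p = 0.0362) at 6 h, -0.66 at 8 h (adjusted p = 2.91e-05) and -1.04 at 10 h (adjusted p = 1.64e-07). After scaling by median of ratios the value at 6 h was -0.31, with an adjusted p of 0.0614.

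Psat1, the aminotransferase of the next step, measured 83.9, 86.1 and 73 FPKM at 0 h in untreated cells and 47.3, 45.5 and 42.2 FPKM at 10 h. At 8 h its 3 libraries were nearly identical at 56.4, 55.8 and 55.8 FPKM. The groups did not overlap, and the change at 10 h was -0.83 (SE 0.07, limma adjusted p = 1.69e-08). Like Phgdh it went on falling from 8 h to 10 h, by 0.31 on the log2 scale (adjusted p = 0.0106), where Phgdh fell by 0.38 (adjusted p = 0.0337).

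Psph, the phosphatase that releases free serine, went from 7.68, 7.11 and 9.77 FPKM to 5.69, 5.39 and 5.16 FPKM at 6 h and 3.82, 3.78 and 4.94 FPKM at 8 h. At 10 h it measured 4.31, 3.85 and 5.22 FPKM, all below the untreated libraries. Its change was -0.51 at 6 h (SE 0.12, limma adjusted p = 0.00178), -0.82 at 8 h and -0.75 at 10 h (adjusted p = 7.54e-05). The difference between 8 h and 10 h was 0.07, with an adjusted p of 0.863.

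Both serine hydroxymethyltransferases were lower at 10 h. Shmt2, the mitochondrial form, measured 61.3, 62.7 and 74.1 FPKM in untreated cells and 43, 41.1 and 49.5 FPKM at 10 h. All treated libraries lay below all controls, with a change of -0.56 (SE 0.09, limma adjusted p = 9.43e-05). Shmt1, the cytosolic form, measured 43.4, 44.1 and 42.2 FPKM in untreated cells, 37.3, 35.4 and 35 FPKM at 6 h and 40.3, 35.3 and 37 FPKM at 10 h. Its groups did not overlap either, and the change was -0.26 at 6 h (SE 0.05, adjusted p = 0.00043) and -0.20 at 10 h (adjusted p = 0.00673). At 6 h Shmt2 stood at -0.17 (SE 0.09, adjusted p = 0.146), nearer to 0 than Shmt1, and at 24 h both were near -0.25. The difference between the 2 genes' changes was not tested. Shmt1 had its lowest mean at 6 h, while Shmt2 had its lowest at 10 h. These low points were not set apart by a call. Shmt1 changed by 0.13 from 6 h to 8 h (limma adjusted p = 0.0987), and Shmt2 by -0.11 from 8 h to 10 h (adjusted p = 0.662).

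Downstream in the mitochondrial folate pathway, Mthfd1l fell and Mthfd2 did not pass the test. Mthfd1l, which releases formate from the folate carrier, measured 24.7, 25.4 and 15.2 FPKM in untreated cells and 16.3, 15 and 13.2 FPKM at 10 h. Untreated 0 h replicate 3 lay among the treated values, and the change was -0.49 (SE 0.15, limma adjusted p = 0.0146). Without the 4 GC-leaning libraries it was -0.64 (adjusted p = 6.93e-07). Mthfd2 measured 20.4, 17.6 and 17.6 FPKM at 10 h, overlapping with its untreated values, with a change of -0.21 (SE 0.10, adjusted p = 0.123) that did not pass the test. Without those 4 libraries its change was -0.36 (adjusted p = 0.00024). From its level at 4 h it had fallen by 0.36 at 6 h (adjusted p = 0.0174).

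Both proline synthesis enzymes fell. Aldh18a1, which makes the glutamate semialdehyde that leads to proline, measured 16.9, 17.3 and 10.5 FPKM in untreated cells and 8.78, 6.78 and 6.52 FPKM at 10 h. Even the low untreated 0 h replicate 3 lay above all 10 h libraries, and the change was -0.91 (SE 0.14, limma adjusted p = 2.95e-05). Pycr1, the mitochondrial reductase of the last step, measured 5.7, 5.62 and 5.8 FPKM in untreated cells, 7.37, 6.19 and 6.47 FPKM at 4 h and 3.87, 3.34 and 3.93 FPKM at 10 h. Its 4 h libraries lay above all controls, as did those of 18.2% of all tested genes. The change was 0.19 (SE 0.08), with an adjusted p of 0.0752. At 6 h its change was -0.01, at 8 h -0.33 (adjusted p = 0.00199) and at 10 h -0.51 (adjusted p = 3.55e-05).

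Pck2, the mitochondrial enzyme that makes phosphoenolpyruvate from oxaloacetate and can feed carbon towards serine, measured 4.77, 5.35 and 4.88 FPKM in untreated cells. It measured 4.56, 4.36 and 4.43 FPKM at 4 h, below all controls, as did 13.7% of all tested genes. The change was -0.14, with an adjusted p of 0.116, and was not called. At 6 h it measured 2.68, 2.9 and 2.66 FPKM, and at 10 h 1.98, 1.82 and 2 FPKM. The groups at 4, 6 and 8 h were fully separated from each other. Pck2 had the largest change of the 10 at 6 h, -0.68 (SE 0.06, limma adjusted p = 1.3e-08), and one of -1.03 at 10 h (adjusted p = 1.59e-10).

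At 24 h the treated cells were compared with untreated cells of the same time. All 10 changes were below 0, with a median of -0.25 beside 0.07 for all tested genes, and 3 members were called lower, against 4.28% of all tested genes. Psat1 measured 81.3, 78.8 and 78.9 FPKM against 88.3, 98.7 and 96.9 in untreated cells, a change of -0.24 (SE 0.07, limma adjusted p = 0.0255). Shmt1 measured 38.4, 39.3 and 39.8 FPKM against 49.2, 47.3 and 45.2, a change of -0.26 (SE 0.05, adjusted p = 0.00284). Pycr1 measured 4.66, 4.5 and 4.98 FPKM against 6.34, 6.04 and 6.8, a change of -0.37 (SE 0.08, adjusted p = 0.0034). In these 3 genes the groups did not overlap, and the same was true of 9 members in all, against 19.4% of tested genes. Pck2, at 4.71, 4.8 and 5.18 FPKM against 5.89, 5.79 and 5.09, was the one that overlapped.

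The number called at 24 h moved with the libraries in the fit. It was 6 without untreated 0 h replicate 3 or without H2O2 2 h replicate 1, neither of which belongs to the groups compared, and 10 without the 4 GC-leaning libraries. In that last fit the members' median stayed at -0.25, and calls rose in other lists too. Of 16 folate and methyl group genes, 5 were higher and 4 lower, against 1 and 0 in the main fit. Of 12 genes of serine and glycine transport and use, 7 were higher and 4 lower, against 3 and 1. Lower glycolysis stayed at 4 lower. The number of members called also moved with the control. Untreated cells at 24 h lay above untreated cells at 0 h for all 10 members, by a median of 0.17, with 0 called against 0.705% of all tested genes and 1285 genes at an unadjusted p below 0.05. Without the 4 libraries, 4 of these differences were called, namely Phgdh, Psat1, Psph and Shmt2. Set against untreated cells at 0 h instead, treated cells at 24 h differed by -0.23 to 0.02, and 0 of 10 members were called, against 10.4% of all tested genes. Hepatocyte markers summed to 4.49 to 4.61 FPKM in treated cells at 24 h and 59.1 to 82 FPKM in their controls. The GC slope was -0.027 to 0.002 in the treated cells and 0.178, 0.024 and 0.11 in these controls. Their part in the 24 h result was not tested beyond a correction for GC content and length, with which 8 members were called lower.

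From 10 h to 24 h the mRNA of 8 of 10 members rose, against 8.18% of all tested genes called higher. Phgdh went from 18.4, 17.9 and 21.8 FPKM to 41, 36.5 and 39.3, a rise of 0.97 (SE 0.10, limma adjusted p = 7.5e-07). Pck2 went from 1.98, 1.82 and 2 FPKM to 4.71, 4.8 and 5.18, a rise of 1.01 (adjusted p = 4.86e-10). Both sets of libraries were fully separated in each gene. The remaining members were Mthfd2, at 0.19 (adjusted p = 0.233), and Shmt1, at 0.06 (adjusted p = 0.497). The effect at 24 h against its own control was smaller than the effect at 10 h by the test of that difference in Phgdh, Psat1, Pck2 and Aldh18a1, 4 members against 2.95% of all tested genes. Without the 4 GC-leaning libraries the count was 7, with Psph, Shmt2 and Mthfd1l added. For Shmt1 the difference was -0.06 (SE 0.08, adjusted p = 0.75), so its deficit at 24 h, -0.26, was not shown to differ from that at 10 h, -0.20.

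**Figure D3:**
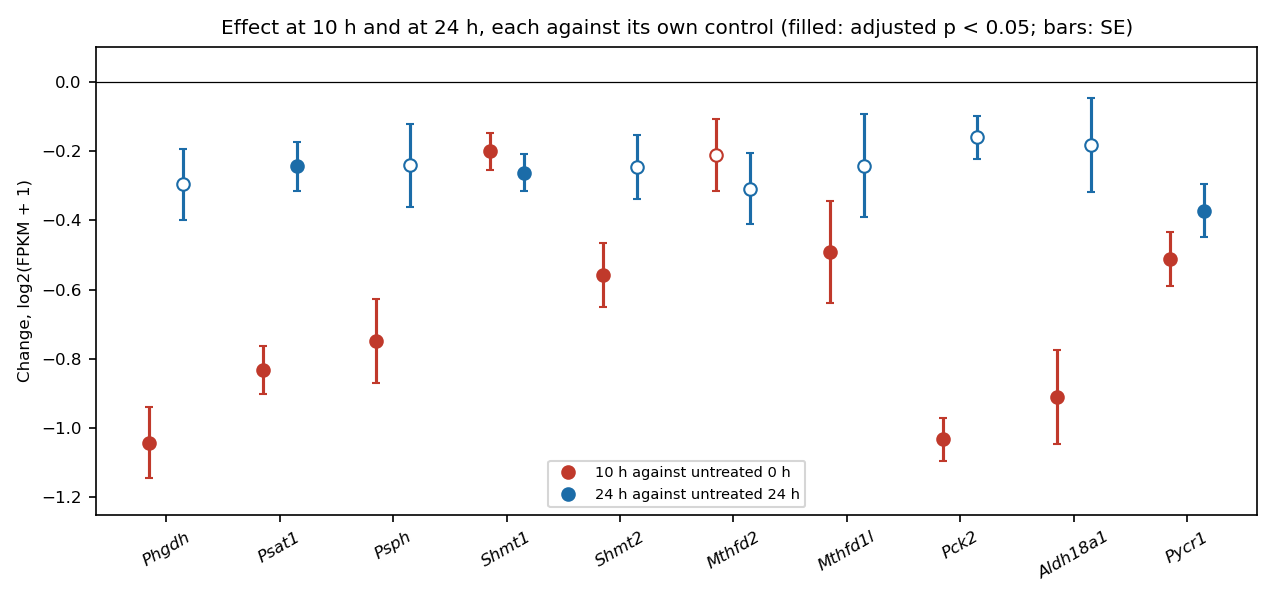
Change of each enzyme mRNA at 10 h against untreated 0 h (red) and at 24 h against untreated 24 h (blue), on the log2(FPKM + 1) scale (vertical axis) by gene (horizontal axis), with SE bars and filled points where the limma adjusted p was below 0.05. The gap is widest in Pck2 and Phgdh, while in Shmt1 and Mthfd2 the 24 h point lies at or below the 10 h point.

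The authors' own test called fewer members up to 10 h. At 4 h the authors' deposited table gives 0 members a q-value below 0.05, with 0.506 for Mthfd2. At 6 h the authors' deposited table has 2 such members, Pck2 and Psph, against the 6 called here, and at 8 h the authors' deposited table has 7 against 9. In the authors' deposited table for 10 h, 8 of the 10 members had a q-value below 0.05, Shmt1 (0.184) and Mthfd2 (0.217) being the others, and 3 carried the authors' mark of significance, Phgdh, Pck2 and Aldh18a1. In the authors' deposited table for 24 h all 10 had a q-value below 0.05 and 0 carried the mark. The share of all genes below that q-value was not computed at any time. These counts therefore do not show whether the members differ from other genes.

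Over the 27 libraries the 10 genes varied together, with Pearson correlations of log2(FPKM + 1) between members from 0.504 to 0.962. These points share groups and libraries, so the values are descriptions. Shifts of single libraries enter them, as untreated 0 h replicate 3 differed from the mean of replicates 1 and 2 by -0.68 in Mthfd1l and 0.27 in Phgdh. Those 2 genes correlated at 0.675 over the libraries and 0.918 over the 9 group means. For Mthfd2 with Mthfd1l the values were 0.879 and 0.872. The part of such shifts in the likenesses below was not tested. Among 7192 tested genes with a mean of at least 5 FPKM, those most like Mthfd1l were Tars (0.98), Farsb (0.977) and Aars (0.969), which encode aminoacyl-tRNA synthetases, the enzymes that load amino acids onto tRNA. The closest to Aldh18a1 were Nars (0.973), Aars (0.971) and Farsb (0.968), of the same family, and Gars (0.966) and Mars1 (0.963) were among the 3 closest to Psat1, after Set (0.968). Pck2 was most like Tubb2b (0.985), Asns (0.972), which makes asparagine, and Mov10 (0.971). Phgdh was most like Slc25a5 (0.972), the mitochondrial ATP/ADP carrier, Rcc2 (0.965) and Shmt2 (0.962). The closest genes to Psph were Aven (0.974), Psmd3 (0.962) and Marcksl1 (0.961), to Shmt2 Rcc2 (0.978), Ptma (0.977) and Alpl (0.97), and to Pycr1 Commd10 (0.948), Ybx3 (0.935) and Cct7 (0.934). Mthfd2, closest to Mpp6 (0.912), Kdm1a (0.911) and Hnrnpl (0.908), and Shmt1, closest to Drg1 (0.855), Slc1a5 (0.852) and Tubb5 (0.851), had weaker partners.

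Of 20 tested aminoacyl-tRNA synthetase genes, 12 fell and 0 rose at 10 h, against 9.43% of all tested genes called lower and 22.2% called higher, with a median of -0.35 beside 0.11 for all tested genes. Mars1, for methionine, went from 57.9 ± 8.05 to 37.2 ± 2.4 FPKM (SD, n = 3), a change of -0.62 (SE 0.08, limma adjusted p = 4.6e-06). Yars, for tyrosine, changed by -0.56 and Gars, for glycine, by -0.52. From 10 h to 24 h 14 of the 20 rose, against 8.18% of all tested genes. At 10 h 17 were lower after scaling, 19 after GC correction and 16 without the 4 GC-leaning libraries.

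The other genes of folate metabolism moved in both directions. Of 16 tested folate and methyl group genes 4 rose and 4 fell at 10 h, against 22.2% and 9.43% of all tested genes. Their median was 0.04 (-0.10 after median-of-ratios scaling), beside 0.11 for all tested genes. The counts were the same without the 4 GC-leaning libraries, and 3 rose and 6 fell with GC correction. Aldh1l1, the cytosolic enzyme that burns formyl folate to carbon dioxide, rose by 1.06, and Mat2a, which makes the methyl donor S-adenosylmethionine, rose by 0.80 (SE 0.19, limma adjusted p = 0.00326). Aldh1l1 is also in the astrocyte marker list, and measured 2.32 to 2.7 FPKM in untreated cells at 0 h and 5.88 to 6.62 FPKM at 10 h. Gfap, another marker of that list, was at 0.0902 to 0.246 FPKM at 0 h and 0.262 to 2.16 FPKM at 10 h. At 0.5 h Gfap was at 1.73 to 2.14 FPKM and Aldh1l1 at 2.29 to 2.64 FPKM. At 4 h Gfap was at 0.14 to 0.363 FPKM and Aldh1l1 at 4.08 to 4.19 FPKM. The part of such cells in the rise of Aldh1l1 was not tested. Folr1, a folate receptor, went from 48.2 ± 14.5 to 20.3 ± 3.36 FPKM, a change of -1.18 (SE 0.18, adjusted p = 2.96e-05). Of the 6 enzymes of purine synthesis around the steps that use formyl folate, 2 fell, Paics by 0.31 and Adsl by 0.30, against 9.43% of all tested genes. The count was 4 without the 4 GC-leaning libraries, 4 with GC correction and 3 with scaling. In the glycine cleavage system, which breaks glycine down to a folate carbon, Gcsh fell by 0.56 and Amt by 0.24, and Gldc and Dld, at 0.01 and 0.10, were not called.

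Among 12 tested genes of serine and glycine transport and use, 2 rose and 4 fell at 10 h, against 22.2% and 9.43% of all tested genes. Without the 4 GC-leaning libraries 3 rose and 5 fell. Srr, serine racemase, rose by 0.58. Cth, which forms cysteine from cystathionine, fell by 0.51 (SE 0.06, limma adjusted p = 3.37e-06), while Cbs, the step before it, rose by 0.38. With correction for GC content and length the value of Cbs was 0.17 (adjusted p = 0.247).

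The other genes of proline and glutamate metabolism included several that rose while Aldh18a1 and Pycr1 fell. Of 10 tested, 4 rose and 1 fell at 10 h, against 22.2% and 9.43% of all tested genes, with a median of 0.19 beside 0.11 for all of them. The median was 0.06 after scaling and 0.05 after GC correction. Leaving out the 4 GC-leaning libraries, 5 rose and 1 fell. Aldh4a1, which turns the proline breakdown product back into glutamate, went from 15.1 ± 1.11 to 33.3 ± 0.662 FPKM at 6 h, a rise of 1.09 (SE 0.06, limma adjusted p = 1.46e-11), and was 0.60 above control at 10 h. Glud1, glutamate dehydrogenase, rose by 0.45 at 10 h. Among 5 tested genes of lower glycolysis, 3 fell at 10 h, Eno1 by 0.34, Pgk1 by 0.29 and Pgam1 by 0.26, against 9.43% of all tested genes. Without the 4 GC-leaning libraries all 5 were called lower.

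The list of regulators and further ATF4 targets was mixed at 10 h, with 3 of 19 tested genes higher and 6 lower, against 22.2% and 9.43% of all tested genes. The median was 0.03 (-0.10 after median-of-ratios scaling). Leaving out the 4 GC-leaning libraries, 5 were higher and 7 lower, and with GC correction 4 were higher and 9 lower. Slc7a3, a transporter of cationic amino acids, went from 39.5 ± 4.38 to 15.8 ± 1.26 FPKM, a change of -1.26 (SE 0.08, limma adjusted p = 5.11e-10). Chac1, which degrades glutathione, fell by 0.86, and Asns went from 229 ± 13.7 to 159 ± 9.35 FPKM, a change of -0.52. Ddit4, an inhibitor of mTORC1 signalling, rose by 0.73. The mRNA of Atf4 itself measured 85.5 ± 6.76 FPKM at 10 h against 88 ± 10.6 in untreated cells (change -0.04, adjusted p = 0.762). At 24 h it was 71.9 ± 4.54 FPKM against 102 ± 3.84, a change of -0.50 (SE 0.09, adjusted p = 0.000616). ATF4 is controlled largely at translation, and its protein was not measured here.

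**Figure D4:**
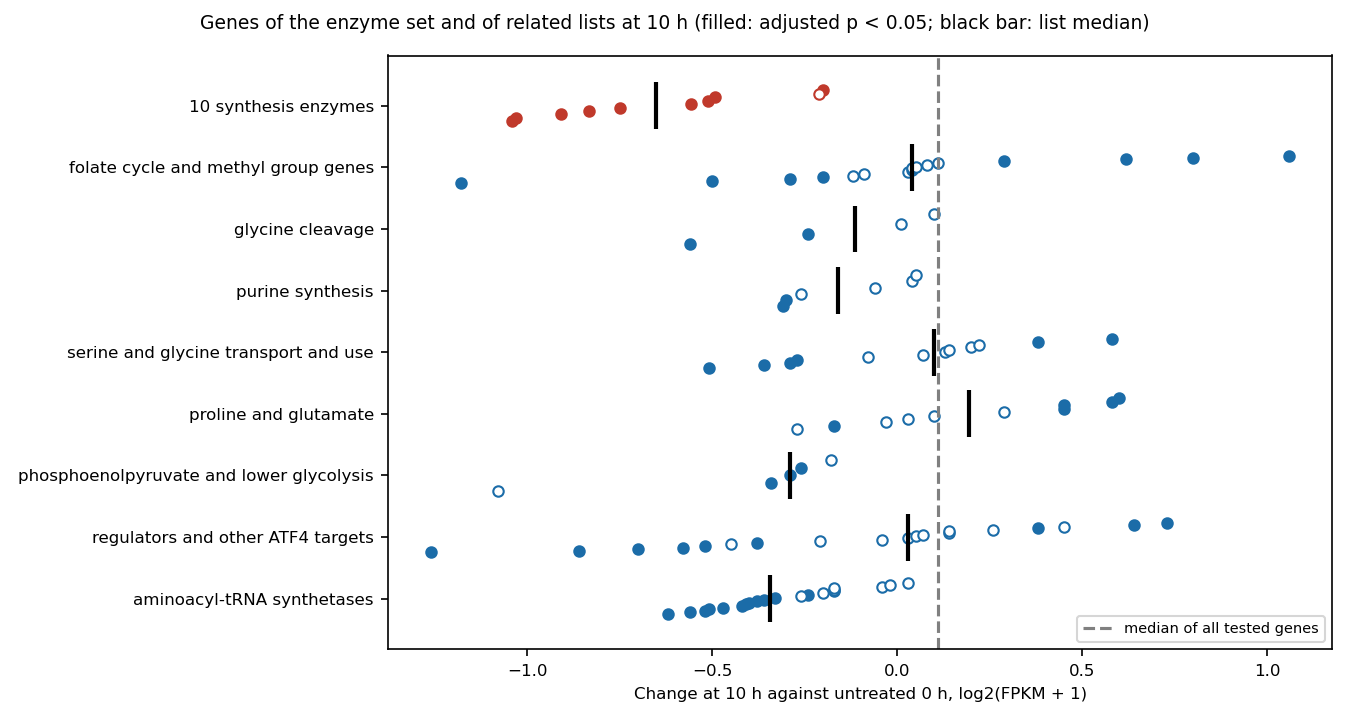
Change at 10 h against untreated 0 h on the log2(FPKM + 1) scale (horizontal axis) for the 10 enzymes (red) and the genes of 8 related lists (blue), 1 point per tested gene, filled where the limma adjusted p was below 0.05, with black bars at list medians and a dashed line at the median of all tested genes. The enzymes centre at -0.65 and the aminoacyl-tRNA synthetases at -0.35, while the folate, serine use and proline lists spread on both sides of 0.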

How the data were processed

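Polyadenylated RNA of 27 libraries was prepared with a stranded protocol and sequenced in pairs of reads, per the labels' protocols. Tools named by the submitters' processing notes are FastQC, cutadapt, HISAT2, StringTie and edgeR, with the build mm10, and settings not given in the sources used here. Values are FPKM as deposited by the authors in 7 tables, per the file headers, with no further scaling stated; 0 of 15 repeated untreated columns differed. The q-value columns deposited by the authors were only quoted.

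Tests used log2(FPKM + 1) of genes that reached 1 FPKM in 3 or more libraries. A limma 3.58.1 model with a mean-variance trend (R 4.3.3) had 1 mean per group over all libraries, two-sided tests and Benjamini-Hochberg adjustment over 13614 genes in each comparison. The median SE was 0.13. The script was tested on simulated data. The p-values measure the spread between replicates within groups, pooled for each gene over all 9 groups. Every comparison of the main fit shares that spread, so it is not the spread of the groups compared alone. GC content and length came from GENCODE M21 for 13602 genes, and promoter windows from RefSeq.

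The members, gene lists and 4 libraries left out together were chosen with earlier results of these data known. Named list genes are up to 3 called members with the largest change in a comparison, some not reported here; Gldc, Dld and the 10 h values of Atf4 and Asns were added after values were seen. Alternatives were another pseudocount, other filters, scaling, no trend, a replicate block, smaller fits, other controls and each library left out; GC correction, library weights, leaving out 6 libraries and the 0 h control for 24 h were chosen after seeing the data.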

Additional observations from a re-analysis of the deposited data

Results flagged for a closer look

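The effect at 24 h differed from the effect at 10 h, each against its own control, by a test of the difference itself (limma, Benjamini-Hochberg over all genes) in 4 members. The difference of the log2 changes was 0.75 for Phgdh (SE 0.15, adjusted p = 0.00212), 0.59 for Psat1 (SE 0.10, adjusted p = 0.000505), 0.87 for Pck2 (SE 0.09, adjusted p = 1.45e-06) and 0.73 for Aldh18a1 (SE 0.19, adjusted p = 0.0198). In each of them the 10 h effect was the lower one. The controls differ, being untreated 0 h for the first and untreated 24 h for the second, and with GC correction the values were 0.85, 0.62, 0.90 and 0.81.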

How the results depend on the processing

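The 32 called member changes from 4 h to 24 h and of the difference of effects kept their direction in every alternative run, and 20 of them lost the call in at least 1. Counts of called members moved as follows, without the share of all tested genes in each fit beside them. They describe the fits and are not read as results about the members. With only the libraries of the groups compared they were 0 at 4 h, 2 at 6 h, 4 at 8 h and 3 at 10 h. In the same fit they were 7 at 24 h and 0 from 8 h to 10 h. These counts rose at 24 h and fell in the other comparisons named, for causes not tested. Without the 4 GC-leaning libraries they were 4 at 4 h, 10 at 24 h, 4 between untreated groups, 1 from 2 h to 4 h and 7 for the difference of effects. Without 2 more untreated 24 h libraries they were 5 at 4 h, 7 at 24 h, 1 from 2 h to 4 h and 7 for the difference. Library weights gave 5 at 4 h, 9 at 24 h, 3 between untreated groups, 2 from 0.5 h to 2 h, 1 from 2 h to 4 h and 7 for the difference. GC correction gave 8 at 24 h and 3 between untreated groups, the 0 h control gave 0 at 24 h, scaling gave 5 at 24 h, 1 from 2 h to 4 h and 1 from 8 h to 10 h, and no filter gave 1 there.

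Leaving out 1 library gave 0 to 2 at 4 h, 3 to 6 at 6 h, 2 to 6 at 24 h, 0 to 1 from 2 h to 4 h, 4 to 9 from 4 h to 6 h, 4 to 8 from 6 h to 8 h and 1 to 2 from 8 h to 10 h. Reversals concerned uncalled changes. At 4 h Phgdh was -0.02 with both untreated groups as control, and Psph 0.05 and Aldh18a1 -0.12 without the 4 or 6 libraries and with weights; leaving out 1 library gave -0.15 to 0.05 and -0.12 to 0.22. At 6 h leaving out 1 library gave -0.19 to 0.09 for Mthfd2, -0.27 to 0.08 for Mthfd1l and -0.03 to 0.02 for Pycr1, and GC correction gave 0.01 for Mthfd2. At 24 h Mthfd1l was 0.02 and Aldh18a1 0 with the 0 h control. Between untreated groups Aldh18a1 was -0.03 without the 4 libraries, -0.06 with weights and -0.03 to 0.3 with 1 library left out. For the difference of effects Shmt1 was 0.02 with scaling, and Mthfd2 0.05 without the 4 libraries, 0.08 with weights and -0.2 to 0.08 with 1 library left out. The causes were not tested.

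Whether replicate numbers pair the libraries was not settled, since the labels do not tie a number to a time course: deviations of same-numbered libraries had a mean correlation of 0.07 against -0.028 for others, with 73 of 108 pairs at or below 0.1, and 15 of 27 libraries correlated best with their own number. With a replicate block 6, 8, 9 and 4 members were called at 6, 8, 10 and 24 h, and with the block and scaling 5 at 24 h, 1 from 2 h to 4 h, 1 from 8 h to 10 h and 0.02 for Shmt1. FPKM limits the account to relative levels, since depth and counting error are unknown, and up to 10 h time in culture is not matched.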
